A study of Mus musculus with 2 samples.

Results

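The genes described are 8 ligands and receptors of 3 signals of tooth eruption, taken by symbol from the 34285 genes in the deposited count matrices. They are Pthlh (PTHrP) and its receptor Pth1r, Tnfsf11 (RANKL), its receptor Tnfrsf11a (RANK) and its decoy receptor Tnfrsf11b (OPG), and Csf1 and Il34 with their shared receptor Csf1r. Each symbol matched 1 row of both libraries, and all 8 had unique molecular identifier counts (UMIs, 1 per captured RNA molecule) in both.

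Single cells were taken at PN15.5 (PN, postnatal day) from mandibular first molars and adjoining tissue of C57BL/6J mice, and were sequenced on the 10x Genomics droplet platform. The Lipo-Clo mice had received intraperitoneal clodronate liposomes, which kill the phagocytes that take them up, 40 μg/g per dose, on PN3.5 and PN6.5 and again on PN9.5 and PN12.5. The Lipo-PBS mice had received an equal volume of vehicle liposomes on the same days. Each condition is 1 library of unsorted cells, and the number of mice in each library is not given in the sources used here. No test between conditions was therefore possible, and differences between the mice, the digestions and the libraries cannot be told apart from the treatment. All intervals are exact 95% intervals and cover counting error only.

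PTHrP is a secreted peptide that signals through PTH1R, a receptor coupled to cyclic AMP, and this signalling is required in the dental follicle for teeth to erupt. RANKL on mesenchymal cells binds RANK on osteoclast precursors and drives them to become osteoclasts, the cells that resorb bone to open the path of the tooth, while OPG binds RANKL and keeps it from RANK. CSF1 and IL-34 both bind CSF1R, the receptor on which macrophages and osteoclast precursors depend. In the osteoblast lineage, PTH and PTHrP are known to raise RANKL and lower OPG.

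After filtering, 8254 Lipo-Clo cells with 26852423 UMIs (median 2567 per cell) and 8261 Lipo-PBS cells with 25831678 UMIs (median 2678) were used. Cells were clustered without the 8 genes and named from marker genes. Dental mesenchyme held 4272 and 4059 of these cells in Lipo-Clo and Lipo-PBS. Cells named macrophages numbered 111 in Lipo-Clo, or 1.34% (1.11 to 1.62), and 138 in Lipo-PBS, or 1.67% (1.41 to 1.97), and cells with at least 3 UMIs of the C1q genes numbered 163 and 287. Neutrophils were 7.17% of the Lipo-Clo and 2.37% of the Lipo-PBS cells, and mitochondrial UMIs 0.370% and 1.73%. Clusters that carried markers of several lineages, or whose leading genes went against the class their markers named, were left unnamed and held 174 cells of Lipo-Clo and 1031 of Lipo-PBS. The largest of them, led by the contractile genes Acta2 and Tagln, had 72 and 734 cells. The ameloblast genes Ambn and Odam and the odontoblast gene Dspp were among the leading genes of clusters. Within mesenchyme, the 7 erythroid markers summed to 22144 CPM in the Lipo-Clo cells and 51531 CPM in the Lipo-PBS cells. The 8 neutrophil markers summed to 612 and 187 CPM, and no marker of either list was at 0. The mesenchymal ratios were also taken on totals without haemoglobin, mitochondrial and ribosomal protein genes, and without a subcluster led by haemoglobin genes. Each ratio stayed within the counting interval of its main value. The part of erythroid RNA was not tested otherwise, and that of neutrophil RNA was not tested. The 2 libraries shared 30 cell barcodes.

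In GENCODE M21 on GRCm38, Pthlh (ENSMUSG00000048776) lies on chromosome 6 from 147252101 to 147264183, Pth1r (ENSMUSG00000032492) on chromosome 9 from 110722085 to 110747145, and Tnfsf11 (ENSMUSG00000022015) on chromosome 14 from 78277445 to 78308043, all on the minus strand. Tnfrsf11b (ENSMUSG00000063727) lies on chromosome 15 from 54250619 to 54278484, Csf1 (ENSMUSG00000014599) on chromosome 3 from 107741048 to 107760469 and Il34 (ENSMUSG00000031750) on chromosome 8 from 110741829 to 110805924, again on the minus strand. Tnfrsf11a (ENSMUSG00000026321) lies on the plus strand of chromosome 1 from 105780718 to 105847981. Pth1r, Il34 and Csf1r (ENSMUSG00000024621) overlap annotated genes on the other strand, Csf1r also overlaps a microRNA gene on its own strand, and whether counting used the strand is not given in the sources used here.

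RefSeq (GRCm38.p6) gave upstream windows for 5 of the 8 genes, and those of the 2 mesenchymal ligands that act on the osteoclast lineage are shown, because both were counted in the mesenchyme, with their highest levels in different subclusters. Each window is the 250 bases before the transcription start, on the strand of the gene, at chr14:78308044-78308293 for Tnfsf11 and at chr3:107760470-107760719 for Csf1. Capitals mark TATAA and GGGCGG on either strand.
Tnfsf11: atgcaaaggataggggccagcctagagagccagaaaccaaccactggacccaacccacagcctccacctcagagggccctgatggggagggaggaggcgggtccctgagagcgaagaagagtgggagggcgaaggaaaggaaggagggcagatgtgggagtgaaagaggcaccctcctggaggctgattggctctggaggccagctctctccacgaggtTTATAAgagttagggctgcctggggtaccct
Csf1: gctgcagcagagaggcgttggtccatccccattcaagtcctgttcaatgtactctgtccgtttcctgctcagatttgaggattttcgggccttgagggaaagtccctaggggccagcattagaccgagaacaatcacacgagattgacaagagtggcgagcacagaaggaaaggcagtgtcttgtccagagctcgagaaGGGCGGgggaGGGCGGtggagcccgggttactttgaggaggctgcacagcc
The Tnfsf11 window held 2 overlapping matches to TATAA, 1 on each strand, the first base 31 bases before the start, and no GGGCGG. The Csf1 window held GGGCGG at 51 and 41 bases before the start and no TATAA. Of all 32851 RefSeq windows of this length, 22.8% held TATAA and 32.7% held GGGCGG. These are matches of letters and not measured sites.

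Pthlh was read mainly in dental mesenchyme, at 159 CPM (UMIs per 1000000 UMIs of the class) in Lipo-Clo against 134 CPM in Lipo-PBS. These were 2291 of 2716 Pthlh UMIs of the Lipo-Clo library (84.4%) and 1819 of 2452 of the Lipo-PBS library (74.2%), with a further 283 Lipo-PBS UMIs in the unnamed clusters. The Lipo-Clo level was 1.18 times that of Lipo-PBS, a log2 ratio of 0.24 (0.15 to 0.33). Reweighted to a common mix of mesenchymal subclusters, the log2 ratio was 0.10. A Pthlh UMI was seen in 22.7% of Lipo-Clo and 20.4% of Lipo-PBS mesenchymal cells (medians 2841.5 and 2971 UMIs per cell). Erythroid cells, which should lack the gene, had one in 3.47% and 4.32% (medians 3501 and 3081). With each cell thinned to 1000 UMIs the mesenchymal shares were 12.4% of 3885 and 10.2% of 3787 cells, and the erythroid shares 0.748% and 0.680%.

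Within the mesenchyme, Pthlh was concentrated in osteoblast- or cementoblast-like cells and in follicle-like cells. The osteoblast- or cementoblast-like subcluster led by Ibsp and Bglap2, which encode matrix proteins of mineralizing cells, had 992 UMIs (667 CPM) in Lipo-Clo against 752 UMIs (469 CPM) in Lipo-PBS, or a log2 ratio of 0.51 (0.37 to 0.64). Next came the 2 dental follicle-like subclusters. The one led by Moxd1 and C1qtnf3 had 495 UMIs in Lipo-Clo against 235 in Lipo-PBS, and the one led by Dio2 and Il1rl1 had 76 and 199. In CPM, the Moxd1 subcluster stood at 251 in Lipo-Clo against 425 in Lipo-PBS, or a log2 ratio of -0.76 (-0.98 to -0.53), so the libraries differed there in the opposite direction to the Ibsp subcluster. The Dio2 subcluster stood at 240 and 292 CPM, and its ratio interval included 0. Outside these, the highest level was 111 CPM over both libraries in a subcluster led by haemoglobin genes, followed by 106 CPM in the subcluster led by Pcp4 and Sfrp2. Of the 12 subclusters with at least 20 Pthlh UMIs, the level was higher in Lipo-Clo in 8 and lower in 4, with intervals clear of 0 in 2 and 1 of these.

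Epithelium held the next highest level of Pthlh over both libraries, with an interval that overlapped that of glia, where Lipo-Clo stood at 59.7 CPM (23 UMIs) and Lipo-PBS at 44.2 CPM (31 UMIs). The epithelial level was 58.8 CPM in Lipo-Clo (156 UMIs) and 79.0 CPM in Lipo-PBS (203 UMIs), a log2 ratio of -0.43 (-0.74 to -0.12). The signal was uneven among its clusters. A small cluster led by Cxcl14 and Dsc3, with 60 Lipo-Clo and 74 Lipo-PBS cells, had 455 CPM (75 UMIs) and 327 CPM (78 UMIs). The ameloblast genes Ambn and Odam led another cluster, in which Pthlh stood at 20.6 CPM (34 UMIs) in Lipo-Clo against 39.2 CPM (35 UMIs) in Lipo-PBS, and the keratin cluster led by Lgals7 and Krt14 had 56.5 and 62.6 CPM. Pthlh was therefore lower in Lipo-Clo in the ameloblast cluster, with a log2 ratio of -0.93 (-1.66 to -0.21), and not in the Cxcl14 cluster, where the ratio was 0.47 (-0.003 to 0.95). Perivascular cells had 14 Pthlh UMIs (18.2 CPM) in Lipo-Clo against 46 (34.1 CPM) in Lipo-PBS, or a log2 ratio of -0.91 (-1.88 to -0.02). Levels of this size also occurred in erythroid cells, which should lack the gene (21.1 for Lipo-Clo, 18.9 CPM for Lipo-PBS), and in B cells (46.6 and 34.4). The part of RNA from other cells in the ameloblast-cluster and perivascular ratios was not tested. The ameloblast cluster supplied 604 of the 844 epithelial cells of Lipo-Clo and 336 of the 777 of Lipo-PBS.

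Pth1r, the receptor of PTHrP, was also mesenchymal and was spread more evenly. Lipo-Clo had 731 UMIs in mesenchyme (50.6 CPM) and Lipo-PBS 536 (39.6 CPM), a log2 ratio of 0.35 (0.19 to 0.52). Perivascular cells followed at 36.4 CPM (28 UMIs) and 28.2 CPM (38 UMIs). Macrophages and osteoclasts had 0 Pth1r UMIs in either library. The highest subcluster was led by Pappa2 and Aspn, with 210 UMIs (88.1 CPM) in Lipo-Clo against 93 (62.2 CPM) in Lipo-PBS. The periodontal ligament (PDL)-like subcluster led by Edil3 and Angptl1 followed with 46 UMIs (73.2 CPM) and 108 (59.4 CPM). Its name came from 6 markers and depended on the resolution. With finer subclusters, those led by Pappa2 and Npnt and by Abi3bp and Mgp took the PDL name, and that led by Mmp13 and Edil3 was unnamed. With coarser subclusters none took it. Pth1r was higher in Lipo-Clo in 12 of the 13 subclusters with at least 20 UMIs, with intervals clear of 0 in 2, and lower in 1. Those 2 were the Pappa2 and Aspn subcluster and the one led by haemoglobin genes, the latter from 19 Lipo-Clo and 14 Lipo-PBS UMIs. After that reweighting, the log2 ratio in mesenchyme was 0.33. PTHrP ligand and receptor thus did not peak together. The Ibsp subcluster that led for Pthlh had 51.8 CPM of Pth1r over both libraries, and the Pappa2 subcluster that led for Pth1r had 57.5 CPM of Pthlh.

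**Figure D1:**
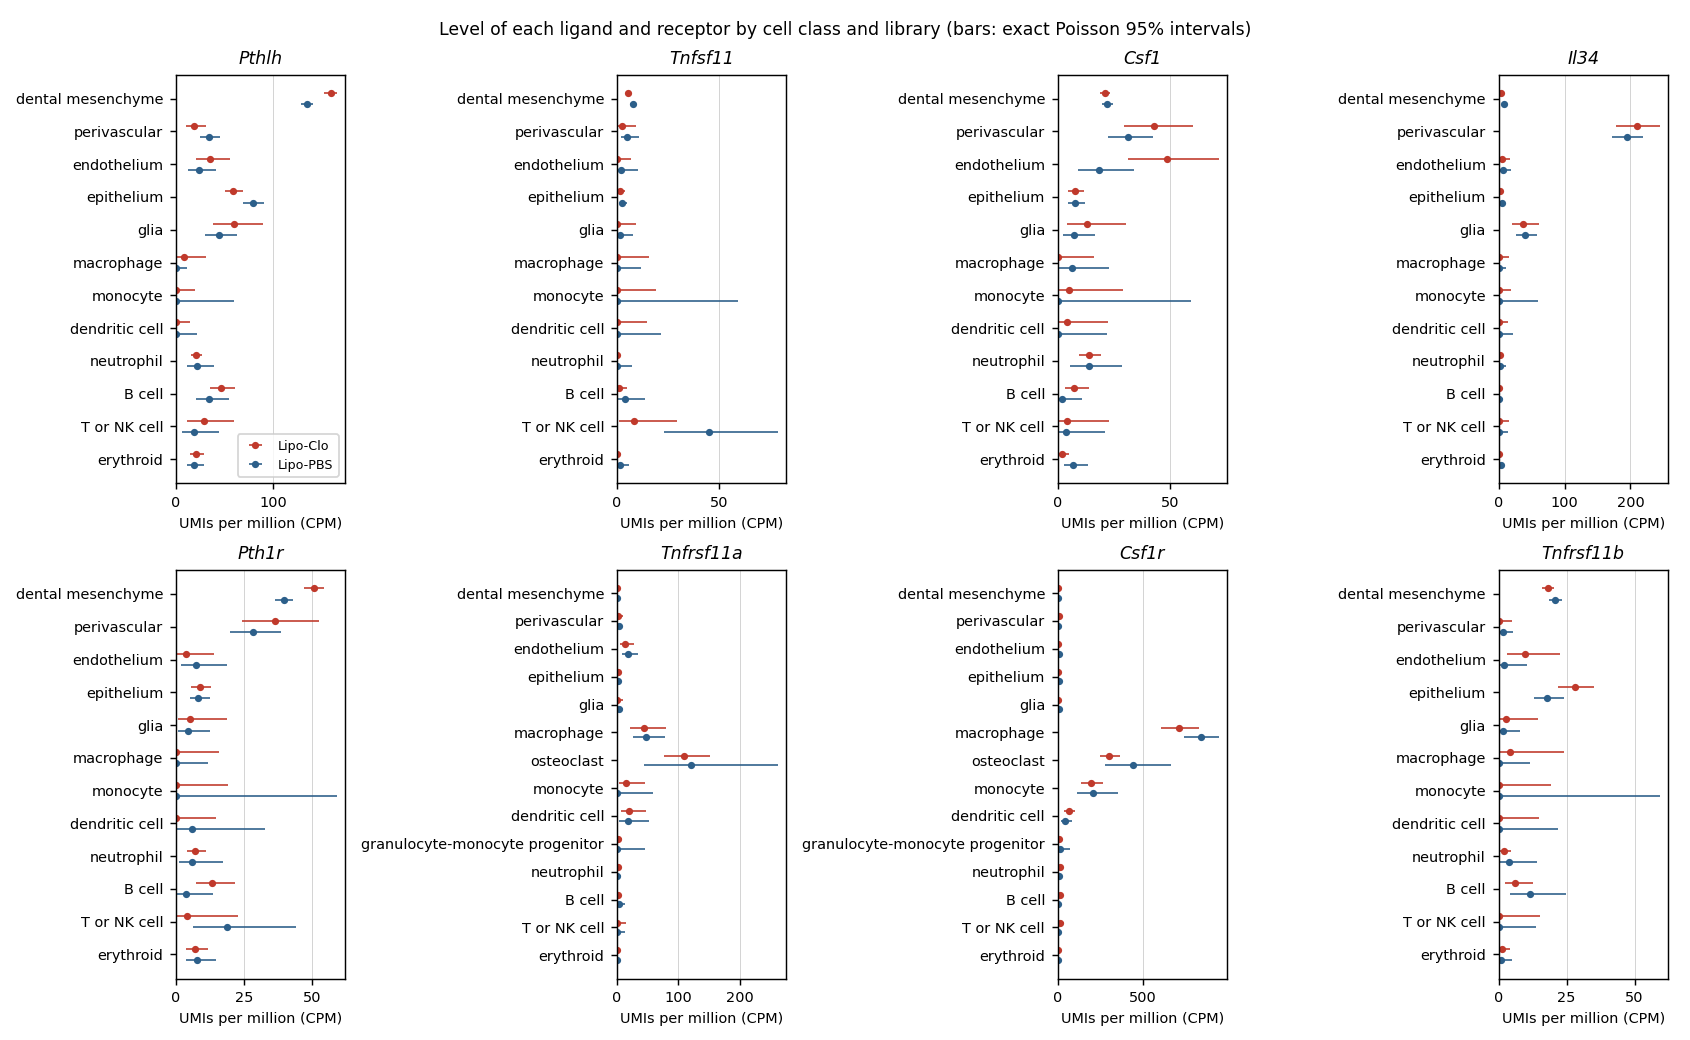
Level of each gene (x axis, CPM, UMIs per 1000000 of the class, linear and scaled per gene) in each cell class (y axis) for the Lipo-Clo and Lipo-PBS library, with points for the level and bars for exact Poisson 95% intervals. Osteoclasts and granulocyte-monocyte progenitors are drawn for Tnfrsf11a and Csf1r only, and unnamed clusters are left out. Pthlh and Pth1r are highest in dental mesenchyme, Il34 in perivascular cells, Csf1r in macrophages and Tnfrsf11a in osteoclasts.

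RANKL transcripts were scarce. The Lipo-Clo library held 95 Tnfsf11 UMIs and the Lipo-PBS library 167, of which 80 and 108 were in dental mesenchyme. The mesenchymal levels of 5.54 CPM in Lipo-Clo against 7.98 CPM in Lipo-PBS gave a log2 ratio of -0.53 (-0.96 to -0.10). A Tnfsf11 UMI was seen in 1.45% and 2.00% of mesenchymal cells, and in 0 of 432 Lipo-Clo erythroid cells (upper bound 0.850%) and 1 of 324 Lipo-PBS ones (0.309%). After thinning to 1000 UMIs per cell the mesenchymal shares were 0.566% and 0.819%. T or NK cells, which can make RANKL when activated, had 2 UMIs (8.20 CPM) in 94 Lipo-Clo cells and 12 UMIs (45.2 CPM) in 111 Lipo-PBS cells. Their level was the highest of any named class over both libraries, and its pooled interval did not overlap that of mesenchyme. It rests on 14 UMIs, mostly from Lipo-PBS, and the log2 ratio between libraries was -2.46 (-5.67 to -0.30). Unnamed clusters held 6 Tnfsf11 UMIs in Lipo-Clo and 28 in Lipo-PBS.

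At the resolution used, most mesenchymal Tnfsf11 came from 2 subclusters. The highest subcluster stood at 5.84 times the level of the whole mesenchyme, a figure that was 2.86 with coarser and 10.3 with finer subclusters. The PDL-like subcluster led by Edil3 and Angptl1 gave 32 UMIs in Lipo-Clo against 64 in Lipo-PBS, and the one led by Pcp4 and Sfrp2, whose leading genes include the collagenase gene Mmp13, gave 22 and 10. In both, the level was higher in Lipo-Clo, at 50.9 against 35.2 CPM in the PDL-like subcluster and 14.4 against 7.89 CPM in the Pcp4 and Sfrp2 subcluster, although both ratio intervals included 0. The PDL-like subcluster held 213 Lipo-Clo and 577 Lipo-PBS cells. Reweighted to the common mix of subclusters, the log2 ratio over the mesenchyme was 0.22, against -0.53 as sequenced. No interval was made for the reweighted value, so whether it was clear of counting error is not known. The sign of the point value for the whole mesenchyme thus changed with the weighting. In the plain sum, fewer cells of a subcluster and less RNA per cell cannot be told apart. The Ibsp and Bglap2 subcluster, the main source of Pthlh, had 0 Tnfsf11 UMIs in Lipo-Clo against 1 in Lipo-PBS.

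Tnfrsf11b, the decoy receptor that binds RANKL, was counted in mesenchyme with 260 UMIs (18.0 CPM) in Lipo-Clo against 281 (20.8 CPM) in Lipo-PBS. The log2 ratio was -0.21 (-0.45 to 0.04), an interval that included 0. Here the Ibsp and Bglap2 subcluster led, with 122 UMIs (82.0 CPM) and 127 UMIs (79.3 CPM), a log2 ratio of 0.05 (-0.32 to 0.42). Tnfrsf11b was lower in Lipo-Clo in the Moxd1 and C1qtnf3 subcluster, with 22 UMIs (11.2 CPM) against 18 (32.6 CPM), and in the PDL-like subcluster, with 2 UMIs (3.18 CPM) against 28 (15.4 CPM). The log2 ratios there were -1.54 (-2.51 to -0.56) and -2.27 (-5.39 to -0.29). Epithelium held fewer UMIs but a level like that of mesenchyme, with 74 UMIs (27.9 CPM) in Lipo-Clo against 46 (17.9 CPM) in Lipo-PBS. Its log2 ratio was 0.64 (0.09 to 1.20). Over both libraries it stood at 23.0 CPM (19.1 to 27.5) against 19.3 CPM (17.8 to 21.0) in mesenchyme, with overlapping intervals. In the ameloblast cluster the counts were 66 and 24 UMIs, and its ratio of 0.57 (-0.12 to 1.31) included 0, while the Cxcl14 and Dsc3 cluster had 4 and 19 UMIs, a ratio of -1.72 (-3.73 to -0.13).

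**Figure D2:**
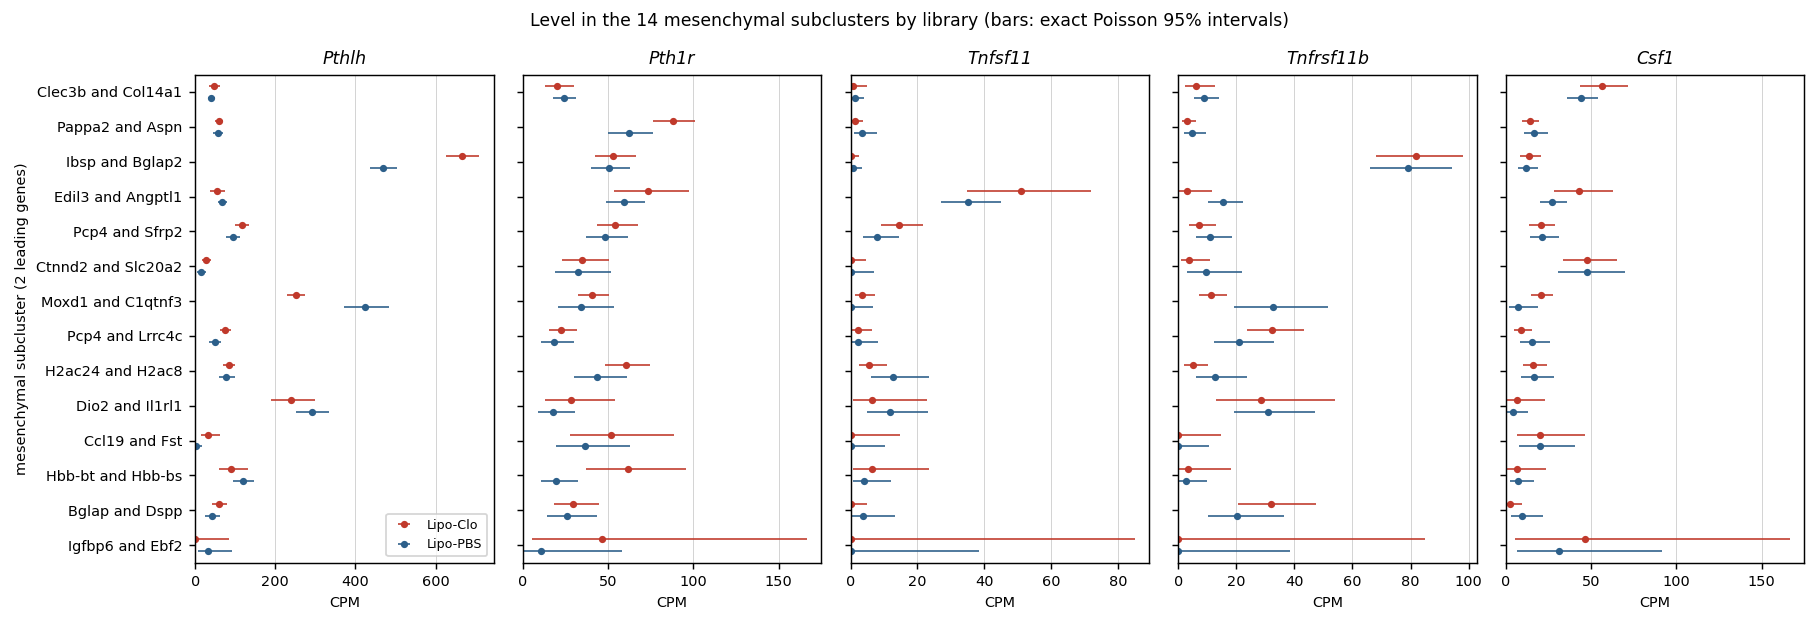
Level (x axis, CPM, UMIs per 1000000 of the subcluster, linear and scaled per gene) of 5 genes in the 14 mesenchymal subclusters, each named by its 2 leading genes (y axis), with bars for exact Poisson 95% intervals. Pthlh and Tnfrsf11b share their highest subcluster, led by Ibsp and Bglap2, where Tnfsf11 had 1 UMI over both libraries, and Tnfsf11 is highest in the one led by Edil3 and Angptl1.

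The ratio of Tnfsf11 to Tnfrsf11b UMIs sets RANKL against its decoy as sums over a class or subcluster. Of 143 mesenchymal cells with a Tnfsf11 UMI, 5 also had one of Tnfrsf11b, or 3.50% (1.14 to 7.97). Among the 8188 other mesenchymal cells 403 had one, or 4.92% (4.46 to 5.41), so the intervals of the shares overlapped. The median depths of these cells were 3780 and 2901 UMIs. Over the whole mesenchyme the ratio was 0.308 (0.236 to 0.397) in Lipo-Clo against 0.384 (0.305 to 0.481) in Lipo-PBS. The log2 change between libraries was -0.32 (-0.83 to 0.18), so neither direction was clear of counting error. Between subclusters the ratio spanned a far wider range. Pooled over both libraries it was 3.20 (2.10 to 5.00) in the PDL-like subcluster, 1.28 (0.735 to 2.25) in the Pcp4 and Sfrp2 subcluster and 0.00402 (0.000101 to 0.0226) in the Ibsp and Bglap2 subcluster. In the PDL-like subcluster it stood at 16.0 (4.08 to 138) in Lipo-Clo, from 32 and 2 UMIs, and 2.29 (1.44 to 3.70) in Lipo-PBS, from 64 and 28 UMIs. After that reweighting, the log2 change for the mesenchyme was 0.46, and with each cell thinned to 1000 UMIs it was 0.15. No interval was made for either value.

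**Figure D3:**
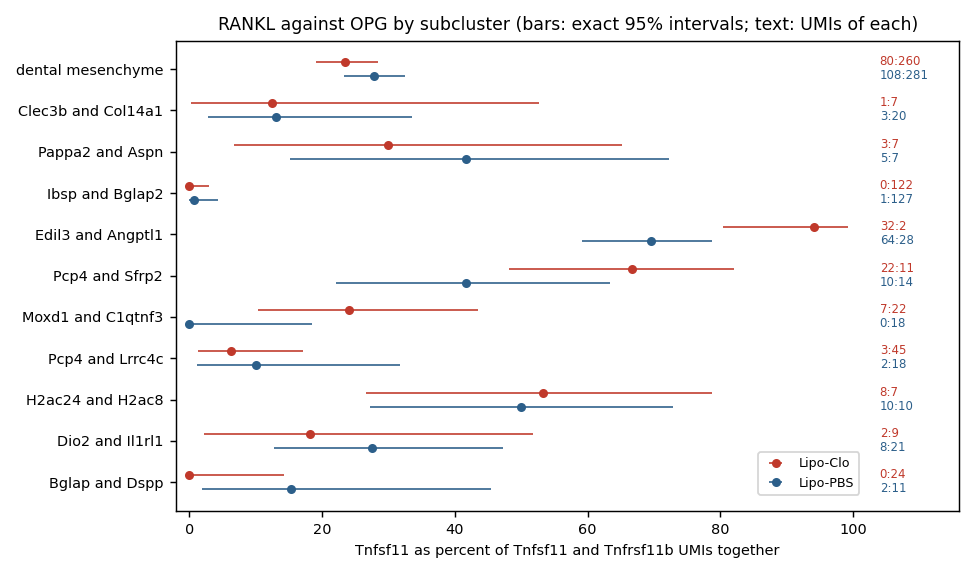
Tnfsf11 UMIs as a percent of Tnfsf11 and Tnfrsf11b UMIs together (x axis) in dental mesenchyme and in the subclusters with at least 20 such UMIs (y axis), by library, with exact 95% intervals and the 2 UMI counts printed at the right. The subcluster led by Edil3 and Angptl1 has 32 to 2 UMIs in Lipo-Clo against 64 to 28 in Lipo-PBS, and the one led by Ibsp and Bglap2 has 0 to 122 and 1 to 127.

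Cells that carried a Tnfsf11 UMI were compared with the other cells of their subcluster, and of the whole mesenchyme, for other genes described here, both libraries together. In the PDL-like subcluster, 16 of 60 Tnfsf11-positive cells had a Pth1r UMI, or 26.7% (16.1 to 39.7), against 106 of 730 other cells, or 14.5% (12.0 to 17.3). Their median depths were 3291 and 2843.5 UMIs. A Csf1 UMI was seen in 9 of the 60 and 55 of the 730 cells and a Tnfrsf11b UMI in 1 and 24, and the intervals of these shares overlapped, as did those for Pth1r. In the Pcp4 and Sfrp2 subcluster the Pth1r shares were 25.9% (11.1 to 46.3) of 27 and 16.7% of 699 cells, whose median depths were 2869 and 3596 UMIs. These cells share libraries and clusters and are not independent replicates.

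Csf1, the growth factor of macrophages and osteoclast precursors, was counted in mesenchyme, perivascular cells and endothelium. In mesenchyme it had 301 UMIs (20.9 CPM) in Lipo-Clo against 296 (21.9 CPM) in Lipo-PBS, or a log2 ratio of -0.07 (-0.31 to 0.17). Perivascular cells stood at 42.9 CPM (33 UMIs) and 31.2 CPM (42 UMIs), and endothelium at 48.4 CPM (25 UMIs) and 18.4 CPM (10 UMIs). The endothelial log2 ratio was 1.39 (0.28 to 2.62). Over both libraries the intervals of perivascular cells and endothelium overlapped, as did those of endothelium and mesenchyme. Among mesenchymal subclusters, Csf1 was highest in the fibroblast-like one led by Clec3b and Col14a1, at 48.2 CPM over both libraries (64 Lipo-Clo and 98 Lipo-PBS UMIs), and in the one led by Ctnnd2 and Slc20a2, at 47.4 CPM (38 and 25 UMIs). After a small fibroblast-like subcluster with 5 UMIs in all, the PDL-like subcluster followed with 27 UMIs (43.0 CPM) in Lipo-Clo against 49 (26.9 CPM) in Lipo-PBS. In the follicle-like Moxd1 and C1qtnf3 subcluster Csf1 had 40 UMIs (20.3 CPM) against 4 (7.23 CPM), a log2 ratio of 1.49 (0.02 to 3.43).

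Il34, the other ligand of CSF1R, was a gene of perivascular cells. They held 161 of 263 Il34 UMIs of the Lipo-Clo library and 262 of 499 of the Lipo-PBS library. The perivascular level was 209 CPM in Lipo-Clo against 194 CPM in Lipo-PBS, or a log2 ratio of 0.11 (-0.19 to 0.40). The unnamed cluster led by Acta2 and Tagln, both perivascular markers, was left out of this class. It held 3 Il34 UMIs (14.4 CPM) in 72 Lipo-Clo cells and 53 (20.1 CPM) in 734 Lipo-PBS cells. The perivascular ratio with that cluster counted in was not tested. A UMI was seen in 29.2% and 32.5% of perivascular cells, or 20.7% and 19.1% after thinning, against 0.463% and 1.23% of erythroid cells. Glia came next at 36.3 CPM (14 UMIs) and 39.9 CPM (28 UMIs), and its interval overlapped neither that of perivascular cells nor that of the next class. Mesenchyme was low, with 61 UMIs (4.23 CPM) in Lipo-Clo against 109 (8.06 CPM) in Lipo-PBS. Its log2 ratio of -0.93 (-1.41 to -0.47) was the largest in size among the 7 genes with at least 50 mesenchymal UMIs, and it was -1.65 with each cell thinned to 1000 UMIs. The fibroblast-like subcluster led by Ccl19 and Fst, with 110 and 156 cells, had the highest mesenchymal level and gave 7 UMIs (27.8 CPM) against 24 (67.8 CPM), a log2 ratio of -1.28 (-2.74 to -0.03). Over the whole library Il34 stood at 9.79 CPM in Lipo-Clo against 19.3 CPM in Lipo-PBS, while perivascular cells were 4.89% and 6.997% of the cells used, and the unnamed clusters held 7 and 77 Il34 UMIs. Summed levels of the 8 perivascular markers in mesenchyme were 520 and 579 CPM, with none at 0. The part of these differences in the Il34 result was not tested.

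Past a fold of 1.5 in either direction in dental mesenchyme, 1 of the 7 genes with at least 50 UMIs there was lower in Lipo-Clo (Il34) and 0 were higher. Of all 13173 genes with at least 50 UMIs, 7.58% were lower and 3.77% higher by this measure, and their median log2 ratio was -0.02. With so few genes, a count of 1 in 7 cannot be set apart from that background. Tnfrsf11a had 7 UMIs in the mesenchyme of each library and was not placed in this count.

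**Figure D4:**
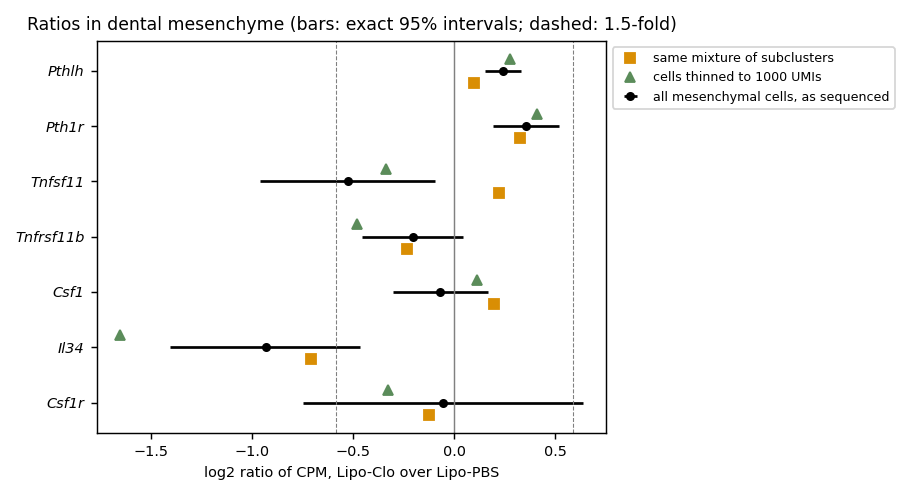
Log2 ratio of CPM in dental mesenchyme, Lipo-Clo over Lipo-PBS (x axis), for the 7 genes with at least 50 UMIs (y axis). Black points with exact 95% intervals are all mesenchymal cells as sequenced, squares reweight each library to a common mix of subclusters, triangles use cells thinned to 1000 UMIs, and dashed lines mark a fold of 1.5. Tnfsf11 lies at -0.53 as sequenced and at 0.22 after reweighting, while Pth1r stays between 0.33 and 0.41.

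Csf1r marked the myeloid cells. Macrophages had 165 UMIs (716 CPM) in Lipo-Clo against 267 (841 CPM) in Lipo-PBS, or a log2 ratio of -0.23 (-0.52 to 0.05). Osteoclasts followed with 100 UMIs (304 CPM) and 22 (441 CPM), monocytes with 37 (193 CPM) and 13 (209 CPM), and dendritic cells with 16 (64.0 CPM) and 7 (41.3 CPM). Over both libraries the intervals of these 4 named classes did not overlap at any step of that order. Unnamed clusters, left out of it, held 61 of 493 Csf1r UMIs of the Lipo-Clo library and 162 of 552 of the Lipo-PBS library. Among them, unnamed cells of the myeloid compartment had 40 UMIs (567 CPM) in 16 Lipo-Clo cells and 80 (346 CPM) in 52 Lipo-PBS cells. Over both libraries these stood at 398 CPM, against 322 CPM in osteoclasts. A Csf1r UMI was seen in 61.3% of 111 Lipo-Clo and 76.1% of 138 Lipo-PBS macrophages (medians 1748 and 2064.5 UMIs), or 48.9% and 62.5% after thinning, against 0.463% and 1.54% of erythroid cells. When macrophages were instead called by at least 3 C1q UMIs, the levels were 487 CPM in 163 Lipo-Clo cells and 367 CPM in 287 Lipo-PBS cells, a log2 ratio of 0.41 (0.16 to 0.65). In osteoclasts, of which only 8 were Lipo-PBS cells, the log2 ratio was -0.54 (-1.22 to 0.20). Called instead by at least 10 UMIs over 6 osteoclast genes, 47 Lipo-Clo cells stood at 324 CPM (113 UMIs) and 52 Lipo-PBS cells at 195 CPM (58 UMIs), a log2 ratio of 0.73 (0.26 to 1.22). The sign of both the macrophage and the osteoclast comparison thus depended on how the cells were called.

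Tnfrsf11a, which encodes RANK, had its highest level in osteoclasts. They held 39.1% of the Tnfrsf11a UMIs of the Lipo-Clo library but 6.0% of those of the Lipo-PBS library. Unnamed clusters held 6 of 92 and 44 of 100. A Tnfrsf11a UMI was seen in 51.1% (35.8 to 66.3) of 45 Lipo-Clo and 37.5% (8.52 to 75.5) of 8 Lipo-PBS osteoclasts. With each cell thinned to 1000 UMIs the shares were 4.55% and 0.0%, without intervals, and the latter rests on very few cells. The cluster with the osteoclast markers Ctsk, Mmp9, Acp5 and Atp6v0d2 among its leading genes held 45 Lipo-Clo and 8 Lipo-PBS cells, with 36 Tnfrsf11a UMIs (109 CPM) and 6 (120 CPM). Called instead by at least 10 UMIs over 6 osteoclast genes, there were 47 Lipo-Clo and 52 Lipo-PBS cells. Of the latter, 24 lay in unnamed clusters and 14 in mesenchyme, and of the former 35 lay in the osteoclast cluster. In cells called this way Tnfrsf11a stood at 109 CPM (38 UMIs) in Lipo-Clo against 50.5 CPM (15 UMIs) in Lipo-PBS, and Pthlh at 34.4 CPM (12 UMIs) and 101 CPM (30 UMIs). The part of mesenchymal RNA in the lower Lipo-PBS level was not tested. Macrophages had 10 UMIs (43.4 CPM) in Lipo-Clo against 15 (47.2 CPM) in Lipo-PBS, and endothelium had 7 (13.6 CPM) and 10 (18.4 CPM). An unnamed cluster led by Ccl21a and Mmrn1, genes of lymphatic vessels, had 4 UMIs (35.6 CPM) and 22 UMIs (30.4 CPM).

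Other genes of the same pathways were followed in dental mesenchyme through 5 lists, to be read against the 3.77% of all genes past the limit higher and the 7.58% past it lower. Of 27 measured genes of PTHrP signalling, 0 were past 1.5-fold higher and 1 was lower in Lipo-Clo, with a median log2 ratio of -0.12. The gene past the limit was Pde4b, a phosphodiesterase that breaks down cyclic AMP, with 775 UMIs (53.7 CPM) in Lipo-Clo against 1347 (99.6 CPM) in Lipo-PBS, or a log2 ratio of -0.89 (-1.02 to -0.76). Sik1 and Sik2, kinases that PTHrP signalling inhibits, had ratios of -0.55 (-0.82 to -0.28) and -0.45 (-0.65 to -0.24), and Creb1, a transcription factor of the cyclic AMP response, -0.35 (-0.51 to -0.19).

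Of 24 measured regulators and partners of RANKL, 1 was past the limit higher and 5 were lower, with a median of -0.13. Il6, a cytokine gene, had 24 UMIs (1.66 CPM) in Lipo-Clo against 107 (7.91 CPM) in Lipo-PBS, or a log2 ratio of -2.25 (-2.95 to -1.60). Wnt16, a Wnt ligand that restrains osteoclast formation in bone, had 31 UMIs (2.15 CPM) and 111 (8.21 CPM), a ratio of -1.93 (-2.56 to -1.35). Ptgs2, the inducible cyclooxygenase, stood at -0.74 (-1.08 to -0.41), and Vdr, the vitamin D receptor, was the 1 gene past the limit higher, with 337 UMIs (23.3 CPM) and 189 (13.97 CPM), a ratio of 0.74 (0.48 to 1.01).

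Of 23 measured genes of RANK signalling and osteoclasts, 0 were past the limit higher and 3 were lower, with a median of -0.20. These were Itgb3, an integrin subunit, at -0.68 (-0.96 to -0.41), Gab2, an adaptor of RANK, at -0.65 (-0.84 to -0.47), and Prdm1, a transcriptional repressor, at -0.63 (-0.92 to -0.34). Nfatc1, the transcription factor that drives osteoclast differentiation, was at -0.46 (-0.71 to -0.21). The summed level of the 8 osteoclast markers in the same cells was 319 CPM in Lipo-Clo against 395 CPM in Lipo-PBS, with none at 0. Most of that sum was Ctsk, with 3994 UMIs in Lipo-Clo against 4800 in Lipo-PBS, a log2 ratio of -0.36. The markers Acp5, with 251 against 249 UMIs, and Mmp9, with 320 against 242, had ratios of -0.08 and 0.31. The sum is therefore mainly a reading of 1 gene, and the part of osteoclast RNA in the list ratios was not tested.

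Of 24 measured genes of CSF1R signalling and myeloid growth factors, 0 were past the limit higher and 7 were lower, Il34 among them, with a median of -0.13. Mitf, a transcription factor of the myeloid lineage and others, had 373 against 612 UMIs, a ratio of -0.81 (-0.998 to -0.62). Runx1, a transcription factor of blood cells and mesenchyme, had 640 against 1009 UMIs, a ratio of -0.75 (-0.90 to -0.61), and Kitl, which encodes stem cell factor, had 257 against 401, a ratio of -0.74 (-0.97 to -0.51). The 9 macrophage markers summed to 66.1 CPM in Lipo-Clo mesenchyme, with 1 at 0, and 108 CPM in Lipo-PBS mesenchyme, and their part in these ratios was not tested.

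Of 17 measured genes among other signals of the dental follicle, 1 was past the limit higher and 2 were lower, with a median of -0.04. Egfr, the receptor of epidermal growth factor, had 465 UMIs (32.2 CPM) against 869 (64.2 CPM), a ratio of -0.996 (-1.16 to -0.83). Ccl2, a chemokine that draws monocytes, had 314 against 445 UMIs, a ratio of -0.60 (-0.81 to -0.38), and Il1r1, an interleukin-1 receptor, -0.50 (-0.69 to -0.31). Msx2, a homeobox gene of the follicle and of bone, was past the limit higher with 795 UMIs (55.1 CPM) against 463 (34.2 CPM), a ratio of 0.69 (0.52 to 0.85). All 5 list medians lay below that of all genes. The lists share some genes, and their measured genes include 5 of the 8 genes described here.

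**Figure D5:**
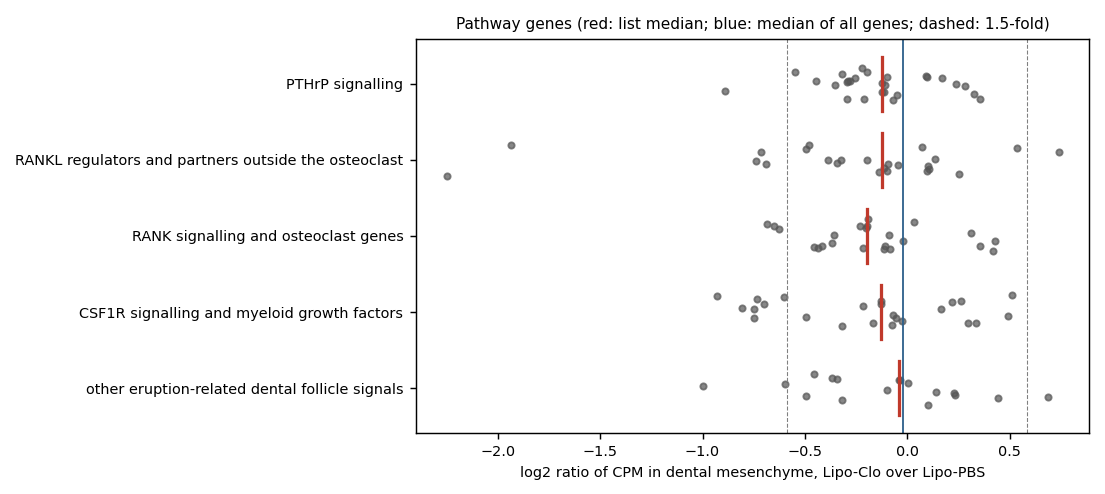
Log2 ratio of CPM in dental mesenchyme, Lipo-Clo over Lipo-PBS (x axis), for each measured gene of 5 pathway lists (y axis, points spread vertically for legibility). Red bars are list medians, the blue line is the median of all 13173 genes at -0.02, and dashed lines mark a fold of 1.5. Il6 and Wnt16, at -2.25 and -1.93, lie farthest from 0.

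The genes whose levels tracked each member most closely were found by Pearson correlation of log2(CPM + 10), as a description. It ran over 24 sums of a class in a library with at least 50 cells each. Osteoclasts, with 45 Lipo-Clo and 8 Lipo-PBS cells, were therefore not among these sums, so the values for Tnfrsf11a and Csf1r leave that class out. For Pthlh they were Moxd1 (0.94), Tnfrsf19 (0.93) and Lum (0.92), and for Pth1r Barx1 (0.93), Gng8 (0.92) and Lhx8 (0.92). For Il34 they were Slc7a2 (0.97), Atp1b2 (0.97) and Itga7 (0.96), and for Csf1r the macrophage genes C1qb (0.98), Adgre1 (0.97) and C1qc (0.97). Tnfrsf11a went with Rasa4 (0.93), Sdcbp (0.93) and Slc43a2 (0.92), Tnfrsf11b with Ube2ql1 (0.87), Sertad4 (0.87) and Cpne5 (0.86), Csf1 with Armcx2, Tns2 and Adamts1 (each 0.86), and Tnfsf11 with Camk4 (0.89), Entrep3 (0.87) and Spryd3 (0.79). Over 26 sums of a mesenchymal subcluster in a library, Pthlh went with Mdga2 (0.91), Atxn10 (0.90) and Kcnmb4 (0.86), Tnfrsf11b with Ccser1 (0.80), Ccdc91 (0.78) and Rnf150 (0.77), Csf1 with Ski (0.82), Plce1 (0.81) and Islr (0.81), and Pth1r with Ydjc (0.73), Gnai2 (0.72) and Pantr1 (0.72). The sums come from the same 2 libraries and differ in depth, so these values describe shared place and not replication.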

How the data were processed

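The authors deposited a matrix of UMI counts for each library, written by Cell Ranger 8.0.0 per the file headers, while the submitters' processing notes list Cell Ranger 3.1.0, Seurat 3.1.1 and GRCm39. Raw counts were used. Of 9362 Lipo-Clo and 9653 Lipo-PBS cells, cells under 200 genes or over 20% mitochondrial UMIs were removed. The automatic Scrublet threshold called 0 and 1 doublets, so the 632 and 633 highest scores were left out. Cells were clustered together with scanpy 1.11.5 and leidenalg 0.10.2 on 2000 variable genes without the 8 genes described, at resolution 1, and mesenchyme again at 0.6. Clusters were named from at least 3 markers. Counts were summed per library and class, with exact Poisson intervals for levels and ratios and Clopper-Pearson intervals for shares, and the ratio code was checked on simulated data. With 1 library per condition no test was made. Genes were compared with at least 50 UMIs, a fold of 1.5 and factors from edgeR 4.0.16 and DESeq2 1.42.0 as alternatives. The 8 genes, up to 4 others of each list by size of the log2 ratio and the 3 most alike genes were named, except 1 list gene that is not reported here. The genes and lists were chosen with earlier results of these data known.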

Additional observations from a re-analysis of the deposited data

Results flagged for a closer look

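Pthlh differed between the libraries in opposite directions in different cells, with intervals clear of 0 on both sides. Its log2 ratio, Lipo-Clo over Lipo-PBS, was 0.24 in dental mesenchyme, -0.43 in epithelium and -0.91 in perivascular cells, the last from 14 and 46 UMIs. Perivascular levels were 18.2 (Lipo-Clo) against 34.1 CPM (Lipo-PBS). Erythroid cells, which should lack the gene, held 21.1 against 18.9 CPM, and B cells 46.6 against 34.4. The part of RNA from other cells was not tested. Epithelial clusters, whose mix differed between libraries, had ratios of -0.93, -0.15 and 0.47. The mesenchymal ratio was 0.10 when reweighted to a common mix of subclusters. Within the mesenchyme the Pthlh ratio was 0.51 in the subcluster led by Ibsp and Bglap2 and 0.62 in the one led by Pcp4 and Lrrc4c. It was -0.76 in the follicle-like one led by Moxd1 and C1qtnf3. With 1 library per condition, these differences between cell groups were not tested.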

How the results depend on the processing

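No paired analysis was possible because there is a single library per condition, and leaving a replicate out was not possible for the same reason. Of the alternative values for the main results, 117 moved by less than their counting interval or, for counts of genes, by less than 1.5 times. Another 20 moved by more and 1 reversed. Of the alternative values for other results, such as shares of UMIs and of cells, 117 stayed by this measure and 63 moved. The Lipo-PBS osteoclast share of Tnfrsf11a UMIs went from 6.0% to 0.0% with each library clustered on its own. The Lipo-PBS macrophage share of Csf1r UMIs went from 48.4% to 59.6% at clustering resolution 2. A value was called reversed only where the main interval lay clear of 0 and the sign changed. Signs also changed where the main interval included 0. This was so for Csf1, Csf1r and the Tnfsf11 to Tnfrsf11b change in mesenchyme, and for Csf1r in macrophages. Pth1r kept its direction in all 15 settings (0.29 to 0.42). Reweighting to a common mix of subclusters gave log2 ratios in mesenchyme of 0.10 for Pthlh, 0.20 for Csf1 and 0.22 for Tnfsf11, the last reversed. It gave 0.46 for the change of the Tnfsf11 to Tnfrsf11b ratio. No intervals were made for reweighted values. Thinning each cell to 1000 UMIs gave -0.48 for Tnfrsf11b and -1.65 for Il34, and a mean over scaled cells gave 0.21 for Csf1. Counting the Acta2 and Tagln cluster as mesenchyme gave -1.12 for mesenchymal Csf1r. C1q-called cells, a different set from the named macrophages, gave 0.41 for Csf1r. Genes past the limit in mesenchyme, 496 higher and 999 lower, became 105 and 292 at a fold of 2, 2073 and 2581 at the lower fold limit tried, 45 and 249 among genes in at least 10% of the cells, and 3512 and 4853 with no filter on low counts. List genes past it became 0 higher and 2 lower at a fold of 2, and 1 and 6 under the 10% filter. Leaving out the haemoglobin-led subcluster and adding the Acta2 and Tagln cluster were chosen after seeing the data. Tnfsf11, with 188 mesenchymal UMIs over both libraries, is limited by depth.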
